A study of Mus musculus with 2 samples.

Results

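Newly formed oligodendrocytes were picked out of single-cell RNA sequencing of the ventral parafacial region, a strip of ventral brainstem, by their transcripts of *Enpp6*. A cell was a member when it held at least 2 unique transcripts (UMIs) of *Enpp6*, at most 2 of *Mog* and *Opalin* together, none of *Klk6* or *Hapln2*, at most 1 of *Pdgfra*, at most 2 of *C1qa*, *C1qb*, *Cldn5* and *Flt1* together, and none of *Slc32a1* or *Slc17a6*. The last 3 conditions keep out precursors, microglia and vessel cells, and neurons. Only barcodes with at least 800 genes, at most 50 hemoglobin UMIs and at most 20% mitochondrial UMIs were considered. The rule found 858 members among 12395 such cells, out of 14008 barcodes in all. The untreated library held 230 members, 6.88% of its 3345 cells (95% binomial interval 6.04 to 7.79), and the 4OH-tamoxifen library held 628, 6.94% of its 9050 (6.42 to 7.48).

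Oligodendrocytes are the cells that wrap axons of the central nervous system in myelin. They arise from dividing precursors that carry the PDGF receptor, pass through a committed stage marked by the receptor *Gpr17*, and leave the cell cycle as newly formed, premyelinating cells before they either die or begin to lay down myelin. *Enpp6* encodes a choline-specific glycerophosphodiesterase and is known as a transient marker of this newly formed stage, which makes its cells a readout of how much new myelination is under way in a young brain.

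Both libraries came from C57BL6/J mice 10 days old, each from a pool of 8 animals (4 male and 4 female), and were prepared with the v2 chemistry of the 10x platform. The untreated mice are labelled as wild type (batch 1), and the others were injected with 4OH-tamoxifen, an estrogen receptor ligand used to switch on inducible Cre enzymes, at 0.2 mg per day for 3 days (batch 2). No Cre or floxed allele is named for either group. With 1 library per condition, treatment, batch and library cannot be told apart, so no test between libraries was made, and every interval below covers counting error only. In bulk sums of cells, a smaller share of cells with a transcript and less transcript per cell cannot be told apart.

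Depth differed. The libraries held 3767 and 10241 barcodes and 18496942 and 34704167 UMIs, and the median member had 5794 UMIs and 2498.5 genes in the untreated and 3823.5 UMIs and 1844 genes in the 4OH-tamoxifen library. Values for the pair of libraries are given below with the untreated library first. Levels are UMIs summed over the cells of a group per 1000000 UMIs (CPM). Of the barcode sequences, 40 occurred in both libraries, 3 members of each library were among them, and 0 were members in both.

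The members were set beside the stages on either side, each defined by UMIs in the same way. Committed precursors had at least 2 UMIs of *Gpr17* and at most 1 of *Enpp6* (213 and 973 cells). Myelin-forming cells had at least 3 of *Mog* and *Opalin* (211 and 651 cells), mature cells at least 2 of *Klk6* and *Hapln2* (192 and 603 cells), and precursors at least 2 of *Pdgfra* with none of *Enpp6* (275 and 622 cells). Members were 20.5% of the cells of these 5 groups in the untreated (18.2 to 23.0) and 18.1% in the 4OH-tamoxifen library (16.8 to 19.4). The rule counts UMIs, so a shallow cell more easily misses the *Enpp6* minimum and a deep one more easily exceeds the limits on the other genes. With every cell of 2000 or more UMIs thinned to 2000, it found 145 of 3107 cells (4.67%, 3.95 to 5.47) and 421 of 6175 (6.82%, 6.20 to 7.48), or 14.96% (12.8 to 17.4) and 16.9% (15.4 to 18.4) of the lineage. Thinning also leaves out the cells under 2000 UMIs, which were 40 of 1121 lineage cells in the untreated and 798 of 3477 in the 4OH-tamoxifen library. With those cells left out and no thinning, a setting chosen after seeing the data, the shares were 20.7% (18.3 to 23.3) and 21.7% (20.2 to 23.3). The order of the libraries thus changed with the cells left out alone, and the intervals of the lineage shares overlapped in each case. Because measured UMIs chose the groups, differences between them are descriptions without a test. Below, the stage before the members means committed precursors and the stage after them myelin-forming cells.

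The starts of 4 genes on which the description below turns are shown, as transcribed from 5′ to 3′ from 250 bases before to 50 bases after the first base of the RefSeq transcript, in build GRCm38.p6. *Enpp6* is the gene of the rule, *Tcf7l2* a marker of the label, and *Bmp4* and *Rras2* stand at the opposite sides of the variation among members. Capitals mark 3 kinds of short motif searched on both strands: ACAANG (SOX factors), CTGGNAC (MYRF) and CAGNTG (E-box, bound by OLIG and TCF4 proteins).
Enpp6, chr8:46986637-46986936, plus strand: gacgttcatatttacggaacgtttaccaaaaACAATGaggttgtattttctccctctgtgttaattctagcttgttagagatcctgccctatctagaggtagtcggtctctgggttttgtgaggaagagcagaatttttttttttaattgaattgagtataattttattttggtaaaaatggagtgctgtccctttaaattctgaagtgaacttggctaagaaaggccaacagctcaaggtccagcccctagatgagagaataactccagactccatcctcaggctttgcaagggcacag
Tcf7l2, first of its 2 listed starts, chr19:55741560-55741859, plus strand: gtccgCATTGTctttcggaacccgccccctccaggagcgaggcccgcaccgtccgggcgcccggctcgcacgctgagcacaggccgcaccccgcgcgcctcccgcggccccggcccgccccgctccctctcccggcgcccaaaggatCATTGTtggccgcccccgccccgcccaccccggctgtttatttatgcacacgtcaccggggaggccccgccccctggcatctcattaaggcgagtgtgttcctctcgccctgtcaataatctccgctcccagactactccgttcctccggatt
Bmp4, chr14:46390620-46390919, minus strand: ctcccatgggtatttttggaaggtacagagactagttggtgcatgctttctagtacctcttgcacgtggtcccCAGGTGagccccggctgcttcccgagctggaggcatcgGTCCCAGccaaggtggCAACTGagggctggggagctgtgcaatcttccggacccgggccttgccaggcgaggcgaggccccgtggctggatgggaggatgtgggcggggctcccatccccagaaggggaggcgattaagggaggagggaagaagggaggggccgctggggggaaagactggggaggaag
Rras2, chr7:114117732-114118031, minus strand: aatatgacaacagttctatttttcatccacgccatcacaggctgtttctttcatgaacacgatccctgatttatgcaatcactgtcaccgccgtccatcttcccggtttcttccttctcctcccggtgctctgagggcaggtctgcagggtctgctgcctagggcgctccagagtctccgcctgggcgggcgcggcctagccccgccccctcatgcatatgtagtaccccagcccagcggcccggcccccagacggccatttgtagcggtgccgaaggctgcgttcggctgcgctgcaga
The *Enpp6* window held 1 SOX motif, 219 bases before the start, and the *Tcf7l2* window held 2, at 245 and 103 bases before it. The *Bmp4* window held a MYRF motif 139 bases before the start and E-boxes 177 and 123 bases before it, while the *Rras2* window held none of the 3. Such short motifs are common: the SOX motif stood in 41.2%, the MYRF motif in 19.3% and the E-box in 51.4% of 32851 promoters of this length. The matches describe letters and say nothing of binding.

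The rule and its edges came first. Of the cells kept, 515 and 1310 had at least 2 *Enpp6* UMIs, and the condition on *Mog* and *Opalin* left out most of those that were not members (250 and 593 cells). *Enpp6* in members ran from 2 through a median of 4 to 17 UMIs in the untreated library and from 2 through 3 to 18 in the 4OH-tamoxifen library. Just outside the rule lay 90 and 381 cells with 1 *Enpp6* UMI, and just inside it 56 and 208 members with 2. *Tcf7l2* stood at 247 and 491 CPM in the cells with 1 *Enpp6* UMI and at 517 and 822 CPM in the members with 2. *Frmd4a* went from 180 and 451 to 501.5 and 937.5 CPM over the same step. In members with 3 *Enpp6* UMIs both genes were lower again in the untreated library (375 CPM of *Tcf7l2* and 286 of *Frmd4a*) and higher in the 4OH-tamoxifen library (984 and 1160.2 CPM). In members with 5 or more, *Frmd4a* was at 1368 and 1795 CPM. On the other edge, the 22 and 59 cells with 3 UMIs of *Mog* and *Opalin* still held 613 and 895 CPM of *Tmem108* and 1112 and 1579 CPM of *Frmd4a*. Neither edge of the rule was thus a gap in these genes. Among microglia, which should lack the gene, 5.28% and 4.71% of cells had an *Enpp6* UMI and 1.26% and 1.76% had at least 2, at a median of 4191 and 2502.5 UMIs per cell.

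The label was first set beside its other 3 markers, which were chosen with earlier results of these data known. *Tcf7l2*, a partner of beta-catenin and a transcription factor of newly formed oligodendrocytes, stood at 695 (95% interval 653 to 740.3) and 1066 (95% interval 1026 to 1107) CPM in members, and 83.5% and 86.3% of members had a UMI of it. Its level was 187 and 339 CPM in committed precursors, 346 and 358 in myelin-forming and 19.8 and 25.3 in mature cells, and 17.6% and 15.4% of microglia had a UMI. *Frmd4a*, a scaffold protein of cell polarity, stood at 979 and 1340.2 CPM in members against 123 and 263 in committed precursors and 449 and 380.3 in myelin-forming cells. The transmembrane protein gene *Tmem108* showed the same peak, with 877 and 796 CPM in members, 230.4 and 347 in committed precursors and 301 and 193 in myelin-forming cells. All 3 were thus highest in members among the 5 lineage groups in both libraries, which describes the members and is no independent test of the label.

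The wider list of newly formed and premyelinating genes, which includes *Tcf7l2*, *Frmd4a* and *Tmem108*, was mostly higher in members than in committed precursors. It had 20 genes measured, meaning at least 20 CPM in the higher group in each library, and 13 of them were at least 2-fold higher in members than in committed precursors in both libraries, where 2.9% of all 6577 genes measured were. None was at least 2-fold lower, as 2.6% of all genes were. The ratios count log2 values after 10 CPM was added to both levels. The median difference of the list was 1.59 and 1.54 on the log2 scale, against −0.05 and −0.06 for all genes measured. When the rules of all groups were applied to cells of 2000 UMIs, an alternative added after seeing the data, 8 of the list were higher. Fewer of all genes were higher at this setting too. Against myelin-forming cells, 6 of 20 were at least 2-fold higher and 1 lower, where 4.95% and 5.18% of 6120 genes were. The median difference of the list there was smaller, at 0.42 and 0.68 against 0.25 and 0.25 for all genes measured. With the rules applied at 2000 UMIs 11 were higher, and so were more of all genes. *Tcf7l2* was not among the 6, since its ratio to myelin-forming cells was 2.01 and 2.98 and fell short of 2 in the untreated library once 10 CPM was added.

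Of the newly formed list, 3 genes with roles in signalling and early myelination were higher in members than in either neighbouring stage. *Fyn*, a Src family kinase that acts in process growth and in local translation of myelin basic protein, stood at 2585 and 2096 CPM in members, above 1239.9 and 1553 in committed precursors and 715 and 501 in myelin-forming cells. Nearly every member had a UMI of it (99.6% and 98.9%). *Itpr2*, which encodes an IP3 receptor of the endoplasmic reticulum, stood at 636 and 704 CPM against 292 and 498 before and 255 and 247 after. *Bcas1*, a marker of early myelinating cells, followed with 1548 and 1256 CPM against 947 and 1024 before and 538 and 425 after.

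Other genes of the list did not peak in members. *Nfasc*, whose glial form anchors myelin at the paranode, climbed from 183 and 426 CPM in committed precursors to 1137 and 1969 in members and 2089 and 2323 in myelin-forming cells. *Tmem2*, a cell surface hyaluronidase, stood at 10.2 and 28.1, then 113 and 387, and then 299.9 and 344 CPM in the same order. *Rras2*, a small GTPase of the Ras family, showed 21.6 and 41.4, then 164 and 283, and then 351 and 358 CPM. The highest levels of *Nfasc* and *Rras2* thus lay one stage later, and so did that of *Tmem2* in the untreated library only. At the other side, *Mycl*, a Myc family transcription factor, was already at 323 and 241 CPM in committed precursors, stood at 337 and 209 in members and was down to 58.1 and 41.3 in myelin-forming cells. The calcium-sensing receptor gene *Casr* and the RNA-binding protein gene *Strbp* did not mark members, with at most 4.38 CPM of the former, and 60.2 and 52.6 CPM of the latter in members against 67.5 and 80.3 in committed precursors.

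**Figure D1:**
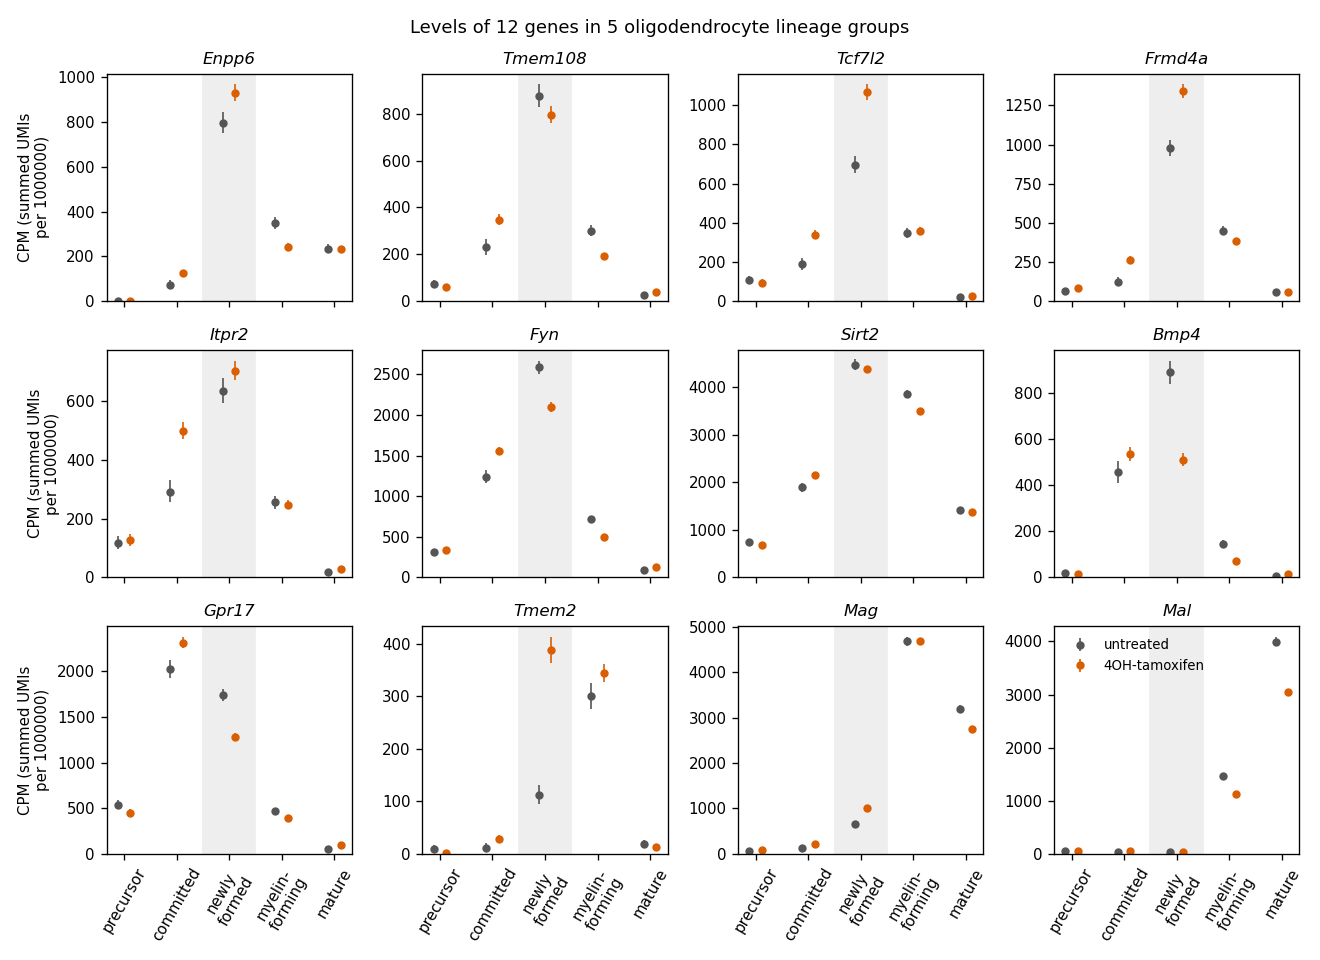
Levels of 12 genes (CPM, vertical axes, each starting at 0) across the 5 lineage groups from precursors to mature cells, with 95% Poisson bars, in the untreated (dark grey) and the 4OH-tamoxifen library (orange), and the members on a grey band. Tcf7l2, Frmd4a and Tmem108 peak on the band in both libraries, Gpr17 is highest one group before it, and Mag and Mal are higher after it in both libraries, and Tmem2 is so in the untreated library only.

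Genes of the committed stage were still present. Their list summed to 12557 and 10570 CPM in members and to 2917 and 3065 CPM in microglia, and the part from other cells was not tested. *Gpr17*, an orphan receptor that holds back maturation, was not part of the members' rule, yet 97% and 94.9% of members had a UMI of it and its level was 1738 and 1283 CPM. Committed precursors, chosen by *Gpr17*, had 2024 and 2312 CPM and myelin-forming cells 469 and 396. *Bmp4*, a secreted ligand of the TGF-beta family, stood at 887 and 509 CPM in members, with a UMI in 84.8% and 67.4% of them. In committed precursors it was 454 and 534 CPM and in myelin-forming cells 144 and 71.1. The ratios of members to committed precursors were 1.95 (95% interval 1.73 to 2.2) and 0.953 (0.881 to 1.03), so the interval held 1 in the 4OH-tamoxifen library only. Of the 12 genes of the committed list, 9 were at least 2-fold higher in members than in myelin-forming cells and 0 lower, where 4.95% and 5.18% of all genes were.

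Of the 12 genes of the committed list, 1 was at least 2-fold higher in members than in committed precursors and 1 lower in both libraries, where 2.9% and 2.6% of all genes were, and *Gpr17* of this list chose the committed precursors. *Sox4*, a SOX factor of immature neural cells, was higher in members (799 and 725 CPM) than in committed precursors (284 and 356 CPM), and its relative *Sox11* was lower (51 and 35.1 against 137 and 116 CPM). *Neu4*, a sialidase, was at 314 and 199 CPM in members against 362 and 265 in committed precursors and 64.5 and 31.9 in myelin-forming cells. The versican gene *Vcan*, which codes for a matrix proteoglycan, showed 282 and 217, then 275 and 297, and then 58.1 and 47.7 CPM in the same order. Members thus kept several transcripts of the committed stage that the next stage had at a fraction of their level.

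Precursor genes were low. Of 20 measured, 14 were at least 2-fold lower in members than in committed precursors and 0 higher, where 2.6% and 2.9% of all genes were. The median log2 difference was −1.45 and −1.42. The NG2 proteoglycan gene *Cspg4*, a marker of dividing precursors, was at 7.79 and 6.78 CPM in members against 73.8 and 51.8 in committed precursors. *Cspg5* was at 58.8 and 70.2 against 669.6 and 366 CPM, and *Ptprz1*, a receptor phosphatase of precursors, at 404 and 286 against 1012 and 798. The same list was at least 2-fold higher in members than in myelin-forming cells for 11 of 14 genes, where 4.95% of all genes were. In these genes members thus lay mostly between the stages on either side. *C1ql1*, a secreted C1q-like protein, gave 941 and 629, then 287 and 163, and then 37.7 and 34.7 CPM in committed precursors, members and myelin-forming cells.

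Cell cycle genes were low. Of 9 cell cycle genes measured, 7 were at least 2-fold lower than in committed precursors, and 0 were higher. *Mki67*, a protein of dividing cells, was at 2.83 and 5.18 CPM in members, 21.6 and 25 in committed precursors and 108 and 164 in precursors. The topoisomerase gene *Top2a* was at 1.42 and 1.99 against 22.9 and 23.3 CPM. Cyclin D1 (*Ccnd1*) stepped down from 308 and 227 CPM in precursors to 66.2 and 54.8 and then 17 and 12.4 in members. None of the 7 cyclin-dependent kinase inhibitors and regulators measured moved by 2-fold. None of 9 cell death and survival genes measured did so either, and with 2.9% higher and 2.6% lower among all genes, 0 in lists this short is near the share of all genes. *Bbc3* (PUMA), which promotes cell death, stood at 22 and 22.3 CPM against 10.2 and 12.9 in committed precursors.

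Transcription factors of the lineage were mixed. Of 27 measured, 6 were at least 2-fold higher in members than in committed precursors and 2 lower, where 2.9% and 2.6% of all genes were. *Myrf*, which switches on myelin genes, stood at 251 and 331 CPM against 96.8 and 136 in committed precursors and was close to its level in myelin-forming cells, 325 and 323 CPM. *Sox10*, present throughout the lineage, was nearly level at 392 and 365, then 482 and 489.9, and then 339.6 and 334 CPM. *Sox2*, a stem cell factor, peaked in members at 439 and 497 CPM, against 185 and 239 before and 202 and 171 after. *Id2*, an inhibitor of basic helix-loop-helix factors, was at 82.9 and 95.3 CPM against 249.5 and 222. *Nkx2-2*, which acts at the start of differentiation, was at 279.7 and 166 CPM, below 378 and 291 in committed precursors and well above 50.6 and 37.8 in myelin-forming cells. *Nkx6-2*, a factor of myelinating cells, ran the other way with 24.2 and 46.2, then 72.2 and 98.9, and then 410.1 and 422 CPM.

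*Olig1* dipped in members. It stood at 1363 and 1040.1 CPM in committed precursors, 890.1 and 687 in members and 1284 and 1279 in myelin-forming cells, and the ratio of members to myelin-forming cells was 0.693 (95% interval 0.648 to 0.742) and 0.537 (0.509 to 0.567). *Olig2*, its paired lineage factor, showed 502 and 483, then 436 and 379, and then 208 and 258 CPM, lower at each stage. The Wnt list had only 5 genes measured, and *Tcf7l2* alone was at least 2-fold higher than in committed precursors, where 2.9% of all genes were. *Axin2*, a widely used target of Wnt signalling, was at 13.5 and 15.5 CPM in members against 10.2 and 14.7 in committed precursors, and *Ctnnb1*, beta-catenin itself, was at 88.5 and 104 against 157 and 161. *Smad7*, an inhibitor of TGF-beta and BMP signalling that lies downstream of the factor *Zeb2* in this lineage, went over the stages from 17.8 and 25 to 77.2 and 124, and then to 259 and 265 CPM.

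Myelin genes were partly on. Of 19 measured, 9 were at least 2-fold higher in members than in committed precursors and 1 was lower, where 2.9% and 2.6% of all genes were. With the rules applied at 2000 UMIs, 3 were higher, and fewer of all genes were higher too. Against myelin-forming cells, 12 of 20 were at least 2-fold lower and 0 higher, where 5.18% and 4.95% of all genes were. The medians were −1.98 and −1.50 against 0.25 and 0.25 for all genes. *Mbp*, which seals the myelin layers, went from 10954 and 14463 to 13552 and 19297, and then to 20687 and 21852 CPM. *Mbp* UMIs were also found in 100% of microglia in both libraries, at 9109 and 12899.6 CPM, and what part of its level in members came from other cells was not tested.

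Myelin genes stood at different points between the stages. *Cnp*, an enzyme of the cytoplasmic channels of myelin, was at 3907 and 3829 CPM, against 1213 and 1536 in committed precursors and 7150.1 and 6627 in myelin-forming cells. *Sirt2*, a deacetylase whose substrates include tubulin, was already past its level in the next stage, with 4466 and 4365 CPM in members against 1890.5 and 2159 before and 3842 and 3492 after. The glial connexin *Gjc3* did the same at 509.9 and 630.2, then 126 and 221, and then 416 and 402 CPM. *Mag*, the myelin-associated glycoprotein, was intermediate at 657 and 1006 CPM with 118 and 226 before and 4681 and 4698 after.

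A late set stood near the level of committed precursors. *Mal*, a lipid raft protein of compact myelin, stood at 30.5 and 33.9 CPM in members, 34.4 and 45.7 in committed precursors and 1474 and 1117 in myelin-forming cells. *Ermn*, a cytoskeletal protein of mature myelin, was at 18.4 and 22.7, then 17.8 and 22.9, and then 406 and 348 CPM, and *Gjb1*, connexin 32, at 10.6 and 15.5, then 14 and 12.9, and then 195 and 239. *Mobp*, a basic protein of compact myelin, stood close to committed precursors with 984 and 1744 against 798 and 1275 CPM and reached 9513 and 10830.4 in myelin-forming cells. The rule used none of these genes, though it held back cells with more *Mog* and *Opalin*.

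**Figure D2:**
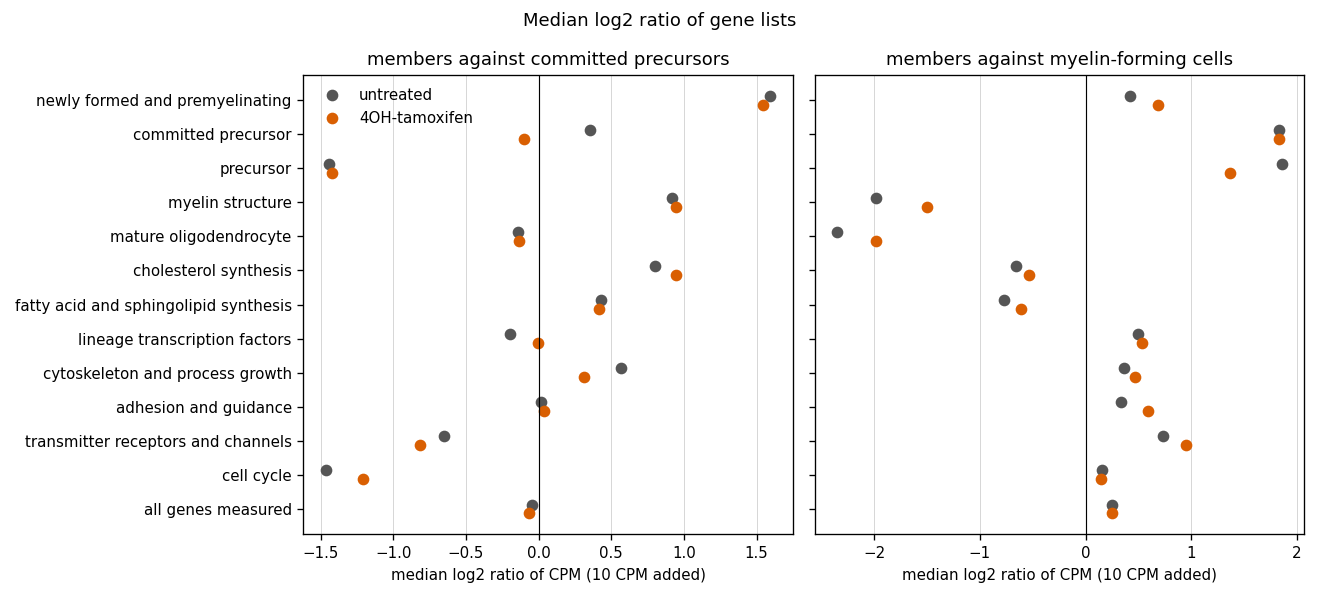
Median log2 ratio (horizontal axis, 10 CPM added) of members over committed precursors and over myelin-forming cells for each gene list, untreated (dark grey) and 4OH-tamoxifen (orange), with all genes measured in the bottom row. The newly formed list lies at 1.59 and 1.54 against committed precursors, and the myelin list lies above the row of all genes on that side and at −1.98 and −1.50 against myelin-forming cells.

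Lipid lists had medians between the stages, and most of their genes did not pass 2-fold in both libraries on either side. Cholesterol synthesis supplies the main lipid of myelin. Of its 22 genes measured, 4 were at least 2-fold higher in members than in committed precursors, where 2.9% of all genes were. The median was 0.80 and 0.94. At 2000 UMIs under the same rules 0 were higher, and fewer of all genes were. Against myelin-forming cells 4 of 22 were at least 2-fold lower, where 5.18% of all genes were, with a median of −0.66 and −0.53. *Hmgcs1*, an early enzyme of the pathway, went from 269 and 281 to 474 and 581, and then to 1393 and 1594 CPM over the 3 stages. Among fatty acid and sphingolipid genes 4 of 18 were at least 2-fold higher than in committed precursors, beside the same 2.9% of all genes. Against myelin-forming cells 5 of 19 were lower, beside 5.18%. The higher ones included *Ugt8a*, which makes galactosylceramide, at 603 and 690.4 CPM against 239 and 275 in committed precursors. They also included the elongase *Elovl7* at 262 and 291 against 48.4 and 88.5.

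Since *Enpp6* acts on choline phospholipids, the genes around it were looked at. Of 17 choline and phospholipid genes measured only *Pcyt2*, which makes the activated form of ethanolamine, was at least 2-fold higher than in committed precursors, where 2.9% of all genes were. It stood at 276 and 318 against 101 and 128 CPM. The choline transporter *Slc44a1* was at 689.7 and 765 CPM against 306 and 404, a ratio of 2.26 and 1.89. *Gpcpd1*, another glycerophosphodiesterase, was at 125 and 182 CPM with 75.1 and 121 before and 60.1 and 52.4 after, and *Chpt1*, a choline phosphotransferase, was lower at 75.8 and 70.6 against 137 and 110.1. *Enpp2* (autotaxin), of the same family as *Enpp6*, did not share its peak, with 344 and 369, then 550.2 and 455, and then 1339 and 1241 CPM.

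Newly formed cells extend many branched processes, and cytoskeleton genes moved both ways. Against committed precursors 4 of 29 were higher and 3 lower, where 2.9% and 2.6% of all genes were, and against myelin-forming cells 7 of 31 were higher and 6 lower, where 4.95% and 5.18% were. *Tubb4a*, the tubulin mutated in a hypomyelinating disease, went from 465 and 691 to 1734 and 1985 CPM, near 1892 and 1995 in myelin-forming cells. *Dynll2*, a dynein light chain, stood at 2711 and 2946 CPM against 1110.1 and 1581 before and 1119 and 1141 after, and *Tuba1a*, the tubulin of growing processes, at 8571 and 5659.6 against 5823 and 3915 before and 3969.8 and 2604 after. *Dpysl2* (CRMP2), which promotes microtubule growth, was higher in members than in committed precursors (1525 and 1920.2 against 505 and 921 CPM), while its relative *Dpysl3* was lower (27.6 and 31.9 against 150.2 and 104 CPM).

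Among 31 adhesion and guidance genes measured, 7 were at least 2-fold higher than in committed precursors and 2 lower, where 2.9% and 2.6% of all genes were. The higher ones included *Sema4d*, a transmembrane semaphorin of oligodendrocytes, at 134 and 233 CPM against 21.6 and 45.7, *Plxnb3*, a semaphorin receptor, at 251 and 294 against 68.7 and 127, and *Cadm1*, an adhesion protein, at 445 and 586 against 155 and 263. Of 19 transmitter receptors and channels measured, 5 were lower and 0 higher, beside the same shares. They included *Grm5*, a metabotropic glutamate receptor (24.1 and 27.9 against 90.4 and 87.2 CPM), and *Kcnd2*, an A-type potassium channel (12.7 and 22.7 against 78.9 and 59.6 CPM). The AMPA receptor subunit *Gria2* was within 2-fold of committed precursors at 536 and 418 against 509 and 573 CPM and stood at 139 and 87.8 in myelin-forming cells.

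The largest differences over all genes not used by the rules named further genes. Against committed precursors, after *Tmem2*, came *Pik3r3*, a regulatory subunit of PI3 kinase, at 307 and 461 against 26.7 and 72.1 CPM. *Parvb*, a focal adhesion protein, was at 235 and 412 against 38.2 and 70.3, and *Cnksr3*, a scaffold of kinase signalling, at 134 and 228 against 12.7 and 41.4. *Arpc1b*, a subunit of the actin-branching Arp2/3 complex, was at 374 and 725 against 84 and 139 CPM. The proteinase *Adamts4* was at 91.4 and 191 against 14 and 38, and *Bfsp2*, an intermediate filament protein first known from the lens, at 272 and 269 against 42 and 63.9. Those with the largest differences the other way were *Cspg5*, *Pcdh15*, *Cacng4* and *Cspg4*, all genes of precursors.

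Against myelin-forming cells *Bmp4* led the higher genes. It was followed by *Pxdc1* and by the unnamed gene 3110035E14Rik (469 and 278 against 63.5 and 45.8 CPM). *Arhgap24*, which switches off Rac GTPases, was at 102 and 63 against 8.94 and 7.28 CPM. *Timp4*, an inhibitor of metalloproteinases, was at 534 and 377 against 116 and 89.2 CPM. On the lower side, after *Mal*, came *Grb14*, an adaptor of the insulin receptor, at 50.3 and 60.2 against 1060.5 and 1190.5 CPM, and *Gsn*, the actin-severing protein gelsolin, at 51.7 and 58.2 against 1254 and 1095 CPM. Each of the 15 genes that led in each direction had the same direction in both libraries by the way it was chosen.

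Transcripts of other cell types were measured in members. The astrocyte list summed to 1123 and 1893 CPM in members, below its sum in committed precursors (2552 and 3208 CPM) and in microglia (1542 and 2685 CPM). The neuron list summed to 361 and 809 CPM, against 561 and 1407 in committed precursors and 427 and 959 in microglia. The microglia list summed to 118 and 159.8 CPM in members and the pericyte and fibroblast list to 123 and 41.1. For Schwann cells, the myelinating cells of nerves outside the brain, the list summed to 443 and 499 CPM in members, against 194 and 247 in committed precursors and 37.9 and 66.2 in microglia. Nearly all of that sum was *Sox2*, given above, which the oligodendrocyte lineage also expresses, and *Prx*, *Egr2* and *Pmp2* were at 0 UMIs in all members. The astrocyte and neuron sums in members were thus below those in microglia, where these genes should be absent, and their part in the results was not tested.

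Members were not uniform. *Gpr17* in members ran from 0 through a median of 10 to 35 UMIs in the untreated library and from 0 through 4 to 25 in the 4OH-tamoxifen library, and *Bmp4* ran from 0 through a median of 5 to 20 UMIs in the untreated library and from 0 through 2 to 9 in the 4OH-tamoxifen library. *Tmem2* and *Rras2* were found in a minority of members, with a UMI of *Tmem2* in 8.7% and 19.7% and of *Rras2* in 23.9% and 35.2% of them. They were set against *Bmp4* after their values were seen, so the shares that follow are a description. Of members with a *Tmem2* or *Rras2* UMI, 56.9% (33 of 58) and 38.8% (94 of 242) also had *Bmp4*, against 94.2% (162 of 172) and 85.2% (329 of 386) of the members without. With every member thinned to 2000 UMIs the shares were 22.6% and 20.1% against 77.7% and 71.2%.

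The same pattern stands in the correlations across members, given as descriptions over 230 and 628 cells that share a library and a range of depths. On log values, *Bmp4* and *Tmem2* had a Pearson's r of −0.52 and −0.54, and −0.35 and −0.44 after thinning. *Tmem2* and *Rras2* went together with an r of 0.74 and 0.67, or 0.70 and 0.59 thinned. *Gpr17* and *Bmp4* had an r of 0.48 and 0.47, or 0.33 and 0.41 thinned. *Tcf7l2* and *Frmd4a* had an r of 0.56 and 0.51, which was 0.40 and 0.32 after thinning, whereas *Tcf7l2* and *Itpr2* had an r of 0.08 and 0.09, or 0.02 and −0.05 thinned.

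Members were therefore divided into those with *Bmp4* and neither *Tmem2* nor *Rras2* (162 and 329 cells, 70.4% and 52.4% of members), called *Bmp4* members, and those with *Tmem2* or *Rras2* and no *Bmp4* (25 and 148 cells, 10.9% and 23.6%), called *Tmem2*/*Rras2* members. A further 33 and 94 members had both and 10 and 57 had neither. Median depth was 5695 and 3322 UMIs in *Bmp4* members and 6663 and 4678 in *Tmem2*/*Rras2* members. In each library 3457 genes reached 50 CPM in 1 of these 2 kinds, and of them 271 (7.84%) were at least 2-fold higher in *Tmem2*/*Rras2* members in both libraries and 205 (5.93%) lower. On thinned cells these were 238 and 194 of 3422.

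The genes that led this split follow. *Fam107b*, an actin-associated protein gene, went from 5.21 to 267 and from 5.2 to 365 CPM from *Bmp4* to *Tmem2*/*Rras2* members. *Tppp*, which promotes tubulin assembly in myelinating cells, went from 32.3 to 609.6 and from 44.2 to 659.8 CPM. *Gsto1*, a glutathione transferase, went from 73 to 1121 and from 78 to 882 CPM, and *Efnb3*, a membrane ephrin, from 9.38 to 196 and from 14.7 to 228 CPM. *Secisbp2l*, which acts in selenoprotein synthesis, went from 107 to 1214 and from 144 to 1276 CPM. In the other direction *Epcam*, an epithelial adhesion protein, went from 202 to 0 and from 164 to 9.5 CPM, and *Nkx2-2* from 349 to 27.2 and from 282 to 25.8 CPM. *Sox6*, which holds precursors back from differentiating, went from 261 to 32.7 and from 279 to 46.2 CPM, and *Tcf4*, a partner of basic helix-loop-helix factors, from 709 to 142 and from 708 to 126 CPM. *Gp1bb* went from 188 to 5.44 and from 237 to 12.2 CPM, but its UMIs are uncertain because its neighbour *Sept5* can be read through into it.

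**Figure D3:**
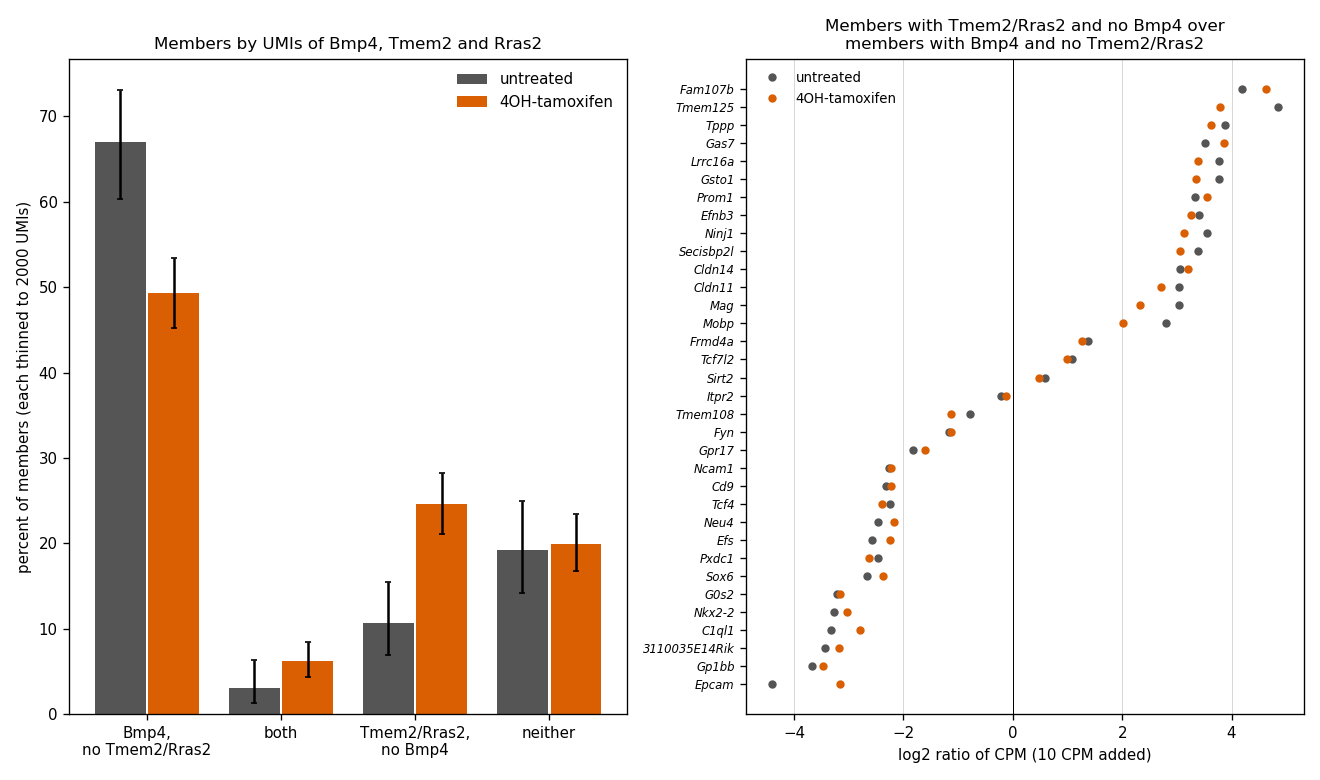
Left, percent of members in 4 kinds by Bmp4 and by Tmem2 or Rras2, each member thinned to 2000 UMIs, with 95% binomial bars (224 untreated members in dark grey, 582 of the 4OH-tamoxifen library in orange). Right, log2 ratio of Tmem2/Rras2 members over Bmp4 members for 34 genes in each library. Bmp4 members are 67.0% and 49.3% and Tmem2/Rras2 members 10.7% and 24.6%, and each of the 34 genes lies on the same side of 0 in both libraries, which the choice of the leading genes fixed for most of them.

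The markers of the label did not divide alike. *Enpp6* itself stood at 755 and 912 CPM in *Bmp4* members and at 920 and 929 in *Tmem2*/*Rras2* members, a value that the rule limits from below in both. *Tcf7l2* went from 559 to 1197 and from 757 to 1506 CPM, a ratio of 2.14 and 1.99. *Frmd4a* went the same way, with ratios of 2.62 (95% interval 2.3 to 2.97) and 2.41 (2.22 to 2.63). *Tmem108* was lower in *Tmem2*/*Rras2* members, with ratios of 0.579 (95% interval 0.466 to 0.714) and 0.454 (0.4 to 0.515), and *Fyn* too, with ratios of 0.443 (95% interval 0.386 to 0.507) and 0.458 (0.424 to 0.493). *Itpr2* moved little, with ratios of 0.86 (95% interval 0.692 to 1.06) and 0.914 (0.817 to 1.02), both intervals holding 1. Of the newly formed list 8 of 18 genes were at least 2-fold higher in *Tmem2*/*Rras2* members and 3 lower, where 7.84% and 5.93% of all genes were. The lower ones were *Fyn*, *Mycl* and *Bcas1*. Among the higher ones, *Nfasc* went from 794 to 2901 and from 1069 to 3303 CPM and *Cnksr3* from 61.5 to 506 and from 61.5 to 519 CPM.

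The lists of both neighbouring stages moved along the split, where 7.84% of all genes were higher and 5.93% lower in *Tmem2*/*Rras2* members. The genes of the split were themselves among those that led the differences between these stages, so the movement is a description and no independent result. Of 10 committed genes, 6 were lower in *Tmem2*/*Rras2* members, and *Gpr17* went from 2005 to 561 and from 1809 to 587 CPM. *Marcks*, an actin-regulating substrate of protein kinase C, was higher and went from 1602 to 4071 and from 2321 to 5117 CPM. Of 13 precursor genes 8 were lower and 0 higher. Of 17 myelin genes 9 were higher and 1 lower: *Mag* went from 297 to 2509 and from 418 to 2132 CPM and *Mobp* from 543 to 3837 and from 906 to 3675 CPM. *Cldn11*, which makes the tight junctions of myelin, went from 818 to 6765 and from 705 to 4666 CPM. Of 9 mature genes 3 were higher, and of 21 cholesterol genes 5, with *Hmgcs1* going from 388 to 882 and from 414 to 900.1 CPM. Levels in *Tmem2*/*Rras2* members were still below those in myelin-forming cells for *Mag* and *Mobp*, whose levels there are given above.

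In other lists, 5 of 23 lineage transcription factors measured were higher and 3 lower, 7 of 23 adhesion and guidance genes higher and 5 lower, 2 of 23 cytoskeleton genes higher and 4 lower, and 1 of 6 transmitter receptors and channels higher and 2 lower. Over all genes 7.84% were higher and 5.93% lower, and these lists are too short to be compared closely with that share. *Klf9*, a factor induced by thyroid hormone that promotes differentiation, went from 194 to 588 and from 234 to 565 CPM, and *Smad7* went from 50 to 245 and from 37.3 to 279.7 CPM. *Sema6a*, a semaphorin needed for timely myelination, went from 74 to 979.7 and from 110.1 to 912 CPM, and *Arpc1b* went from 153 to 1475 and from 257 to 1556 CPM. On the lower side, *Map2*, a microtubule-associated protein of neurons and young oligodendrocytes, went from 409 to 103 and from 368 to 107 CPM, and *Tubb2b*, an early tubulin, from 1849 to 555 and from 1426 to 472 CPM. The adhesion gene *Ncam1* went from 819 to 163 and from 713 to 144 CPM and the receptor subunit *Gria2* from 602 to 158 and from 551 to 164 CPM. The direction of each of these was the same in both libraries, which were split by the same genes.

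A few members had no *Gpr17*. They were 7 (3.04%) and 32 (5.10%), and 22 of 224 (9.82%) and 84 of 582 (14.4%) at 2000 UMIs. On all UMIs, 57.1% and 43.8% of the members without *Gpr17* had *Tmem2*, against 7.17% and 18.5% of members with *Gpr17*. Their median depth was 2343 and 3181.5 UMIs, against 5998 and 3841.5 in the rest.

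The libraries differed in this make-up. *Bmp4* members were 67.0% of untreated (60.4 to 73.1) and 49.3% of 4OH-tamoxifen members (45.2 to 53.5) at 2000 UMIs, and *Tmem2*/*Rras2* members were 10.7% (6.99 to 15.5) and 24.6% (21.1 to 28.3). The order was the same on all UMIs. With 1 pool of animals each, this difference has no replicate check and cannot be told apart from batch. The members were still chosen on all UMIs, so thinning did not remove the difference in depth between the libraries from that choice.

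Across 6585 genes measured in members, 51 (0.774%) were at least 2-fold higher and 8 (0.121%) at least 2-fold lower in the 4OH-tamoxifen library, with a median log2 difference of −0.04 over all of them. These counts depended on the processing: they were 122 and 58 with the members thinned, 161 and 89 with the rules applied at 2000 UMIs, and 33 and 14 with CPM averaged per cell, and 22 were higher with at least 1 *Enpp6* UMI. *Tmem2* went from 113 to 387 CPM, a ratio of 3.44 (95% interval 2.91 to 4.1), and with the rule applied at 2000 UMIs from 114 to 284 CPM. *Fam107b* went from 39.7 to 116 CPM, a ratio of 2.93 (95% interval 2.19 to 3.97), and from 20.7 to 95 CPM under the rule at 2000 UMIs. *Lrrc16a*, an actin capping regulator, went from 36.8 to 102 CPM. These are genes of the *Tmem2*/*Rras2* members, and the newly formed list as a whole had a median difference of 0.36 with 2 of 20 genes higher, while the committed list had −0.44 and the precursor list −0.35. The newly formed list was not shifted in members alone, with 0.66 and 3 of 19 genes higher in committed precursors and 0.62 and 1 of 16 in microglia. It had −0.01 in myelin-forming cells, 0.09 in precursors and 0.16 in mature cells, with 0 genes higher in each. The precursor list had −0.47 in committed precursors and 0.67 in microglia.

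Within either kind of member some markers differed less. *Gpr17*, at a ratio of 0.738 over all members (95% interval 0.7001 to 0.7782), had ratios of 4OH-tamoxifen over untreated of 0.902 in *Bmp4* and 1.05 in *Tmem2*/*Rras2* members. *Frmd4a*, at 1.37 over all members, had 1.03 and 0.949 within the kinds. *Tcf7l2* kept part of its difference, at 1.53 over all members and 1.35 and 1.26 within them. *Cd9*, which codes for a tetraspanin of the cell membrane, kept most of its difference. It went from 3063 to 1318 CPM, a ratio of 0.43 (95% interval 0.411 to 0.45), with 0.521 (0.493 to 0.550) in *Bmp4* and 0.548 (0.445 to 0.680) in *Tmem2*/*Rras2* members. *Cd9* also went from 2378 to 1438 CPM in committed precursors, from 926 to 362 CPM in myelin-forming cells and from 804 to 630.0 CPM in microglia.

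Other genes that led the comparison moved in cells of other types too. The neuronal filament genes *Prph* and *Nefh* went from 15.6 to 56.2 CPM and from 38.2 to 125 CPM in members, and *Prph* went from 25.4 to 67.8 CPM in microglia. The neuron list had a median log2 difference of 0.99 in members and 0.98 in microglia, and the astrocyte list 0.71 and 0.70. *Egr1*, an immediate early gene that responds to handling of tissue, went from 53.1 to 12.4 CPM, a ratio of 0.233 (95% interval 0.148 to 0.358). It also went from 233 to 54.4 CPM in committed precursors and from 619 to 268 CPM in microglia. The immediate early list had −0.57 in members, −0.73 in committed precursors and −0.83 in microglia. *Rgs5*, a marker of pericytes, went from 62.3 to 11.6 CPM with a UMI in 6.52% and 3.82% of members. The part of RNA from other cells and of tissue handling in these differences was not tested.

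Metallothioneins, which bind zinc and copper, were higher in the 4OH-tamoxifen library. *Mt1* went from 756 to 1669.8 CPM in members and from 1166 to 2214 CPM in microglia, and *Mt2* from 161 to 436 CPM in members. Both belong to the glucocorticoid response list, which had a median of 0.66 in members, with 2 of 8 genes higher, and 0.05 in microglia, with 2 of 10 higher. Its median was 0.45 in committed precursors, with 0 of 8 genes higher, 0.43 in precursors, with 1 of 8 higher, 0.18 in myelin-forming cells, with 0 of 8, and 0.39 in mature cells, with 0 of 7. Over all genes measured, the share at least 2-fold higher was 0.774% in members, 2.02% in microglia, 0.695% in committed precursors and 0.446% in precursors, and it was 0.0687% in myelin-forming and 0.123% in mature cells. *Tsc22d3* (GILZ), the glucocorticoid-induced leucine zipper, went from 24.1 to 48.6 CPM, a ratio of 2.02 (95% interval 1.37 to 3.05) in members, and *Klf9* from 254 to 371 CPM, a ratio of 1.46 (95% interval 1.29 to 1.66). With the rule applied at 2000 UMIs, *Klf9* went from 314 to 350.4 CPM. Within the kinds of member, the ratio of *Klf9* was 1.21 (95% interval 0.997 to 1.46) in *Bmp4* and 0.961 (0.776 to 1.2) in *Tmem2*/*Rras2* members, and that of *Mt1* was 2.03 and 2.60. The list also had 2 of 5 genes higher in *Tmem2*/*Rras2* than in *Bmp4* members, where 7.84% of all genes were. Its medians there were 0.61 and 0.59. *Tmem2*/*Rras2* members were a larger share of the 4OH-tamoxifen members, and the part of this make-up in the difference between libraries was not tested.

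**Figure D4:**
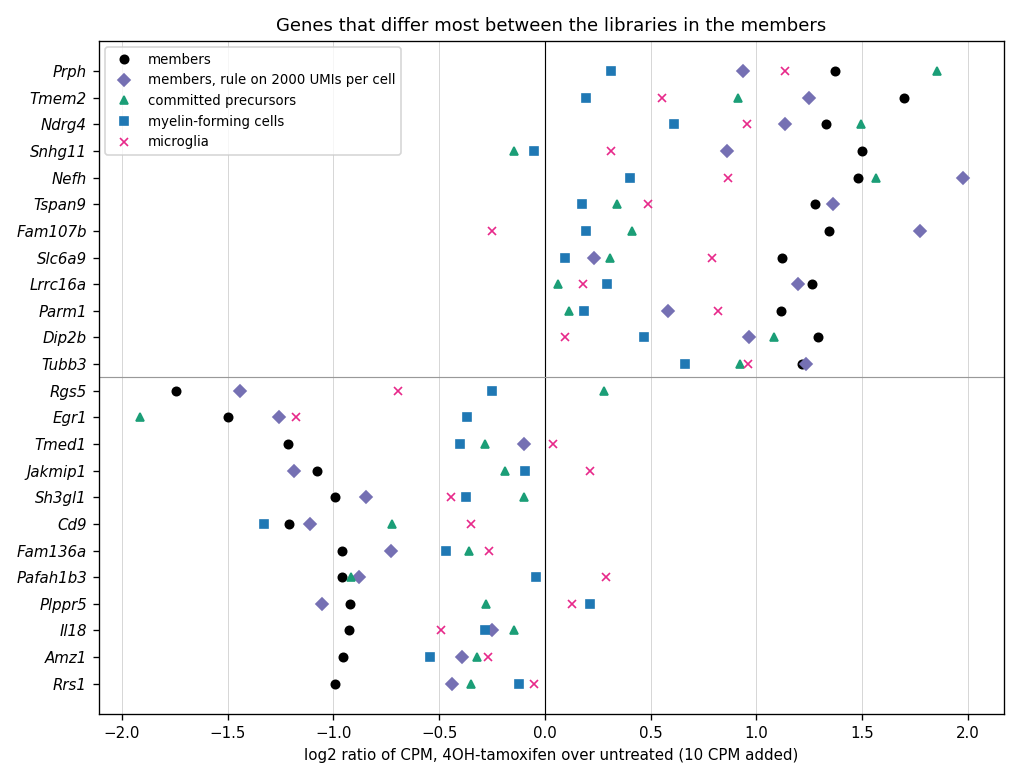
Log2 ratio of the 4OH-tamoxifen over the untreated library (horizontal axis, 10 CPM added) for the 24 genes that led the comparison in members, with the same ratio under the rule applied at 2000 UMIs and in committed precursors, myelin-forming cells and microglia. Cd9 and Egr1 lie below 0 in all 5 sets, whereas Tmem2 and Fam107b lie furthest from 0 in members and under the rule at 2000 UMIs.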

How the data were processed

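Single cells of the ventral parafacial region were captured on the 10x platform, 1 library each for untreated and 4OH-tamoxifen mice. The authors converted reads with bcl2fastq (version 2.18.0.12) and counted them with Cell Ranger (version 2.2.0) on mm10, per the labels, and the deposited values are raw counts of UMIs per gene and cell barcode, with no normalization. The libraries held 18496942 and 34704167 UMIs in 3767 and 10241 barcodes, which sets the precision of each value. Groups of libraries follow the condition label.

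Barcodes with at least 800 genes, at most 50 hemoglobin UMIs and at most 20% mitochondrial UMIs were kept, and members and lineage groups were taken by UMI rules. The members and the gene lists (26 lists, 479 genes, 477 found) were chosen with earlier results of these data known, and several lists hold genes known from the same lineage. Each level is the sum of UMIs per 1000000 with an exact 95% Poisson interval, shares have Clopper-Pearson intervals, and ratios have exact conditional intervals. A gene counted as different when it was at least 2-fold apart in both libraries, with 10 CPM added, among genes of at least 20 CPM in the higher group. Deeper cells were also thinned to 2000 UMIs. No test between libraries was made, since each condition has 1. The ratio and thinning steps were tested on simulated data.

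No doublets were removed by the rule. Scrublet in scanpy marked 6 and 544 barcodes (0.159% and 5.31%), 2 and 29 of them members, and since it marked few in the untreated library, removal at the rate expected from loading, 0.8% per 1000 barcodes (114 and 839 barcodes, 7 and 46 members), was tried as well. Genes named were those of the rule and lists, the 15 that led each comparison of stages and the 12 that led the comparison of libraries in each direction. The split of members by *Bmp4* against *Tmem2* and *Rras2*, and the genes that led it, were chosen after their values were seen. Some genes that these rules name are not reported here. Promoters are from RefSeq (GRCm38.p6), and of 7 genes looked up 6 had one, with *Tmem2* missing. Promoters were matched by symbol. Python 3.11.15 was used with numpy 2.4.6, scipy 1.17.1, scanpy 1.11.5 and matplotlib 3.10.9.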

Additional observations from a re-analysis of the deposited data

Results flagged for a closer look

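The ratio of the 4OH-tamoxifen to the untreated library lay on opposite sides of 1 in members and in a neighbouring stage for 10 genes of the lists, with neither interval holding 1. The difference between the stages was not tested, and each library was 1 pool. Against committed precursors these were *Gpr17* (0.738 in members, 1.14 in committed precursors), *Tmem108* (0.908 and 1.51), *Fyn* (0.811 and 1.25), *Bmp4* (0.574 and 1.17), *Tnr* (0.895 and 1.13), *Sox4* (0.907 and 1.26) and *Epcam* (0.583 and 1.78). Against myelin-forming cells they were *Frmd4a* (1.37 in members, 0.847 in myelin-forming cells), *Prom1* (2.32 and 0.750) and *Chn2* (1.11 and 0.726).

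The border between committed precursors and members is 2 *Enpp6* UMIs, and the libraries differed in depth, so the same ratios were taken with the rules applied to cells of 2000 UMIs. *Gpr17*, whose UMIs choose the committed precursors, then had 0.883 (95% interval 0.791 to 0.987) in members and 1.07 (1.01 to 1.14) in committed precursors, and *Fyn* had 0.888 (0.814 to 0.969) and 1.15 (1.07 to 1.23). The intervals of the other 8 genes no longer lay on opposite sides of 1 in both groups. *Bmp4* had 0.612 in members and 0.953 in committed precursors, and *Tmem108* had 0.813 and 1.08.

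Outside the quality filter, 6 of 1191 barcodes of the 4OH-tamoxifen library (0.504%) met the UMI rule for members, 2 of them under 800 genes and 4 over the hemoglobin limit, and 1 of 422 (0.237%) did so in the untreated library.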

How the results depend on the processing

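No paired analysis was possible because each condition has 1 library, and no replicate could be left out. Of 50 numbers and shares of members, 30 moved by no more than their interval or count limit and 20 moved. Of 182 counts over all genes or of lists in their leading direction 169 stayed and 13 moved. Of 182 list counts in the remaining directions 163 stayed and 19 moved. A reversal of sign was looked for only in ratios that were at least 2-fold in the main setting, and not in shares or counts. Of the 960 gene ratios between stages 0 reversed in this sense. Of them, 262 moved, meaning that they left their interval and changed by more than 0.1 on the log2 scale. The counts between libraries moved most often (9 of 22).

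With a minimum of 1200 genes the members were 8.07% and 10.9% of cells and 22.3% of the lineage in the 4OH-tamoxifen library. With at most 10% mitochondrial UMIs they were 9.41% and 8.94% of cells and 23.1% and 19.8% of the lineage. With at least 1 *Enpp6* UMI they were 9.57% and 11.1% of cells and 27.7% and 28.2% of the lineage, 1009 members of the 4OH-tamoxifen library, and 22 genes were higher in that library in place of 51. With at least 3 *Enpp6* UMIs they were 5.20% and 4.64% of cells and 15.6% and 12.2% of the lineage, and 2 cholesterol genes in place of 4 exceeded committed precursors. The rule applied after thinning gave 145 untreated members, 4.67% of cells and 14.96% of the lineage.

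With the members thinned and the rule unchanged, 2 cholesterol genes were higher than in committed precursors, 105 of all genes were lower in place of 171, and 122 and 58 genes were higher and lower in the 4OH-tamoxifen library in place of 51 and 8. With CPM computed per cell and then averaged those were 33 and 14, and 20 were lower with a minimum of 50 CPM and 1 CPM added. In the untreated library on its own 389 genes were lower than in committed precursors and 529 higher than in myelin-forming cells (303 in both libraries), and in the 4OH-tamoxifen library on its own 8 cholesterol genes were higher.

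Settings added after seeing the data were these. With the rules of all groups applied after thinning, 8 newly formed genes in place of 13, 3 myelin genes in place of 9 and 0 cholesterol genes exceeded committed precursors, and over all genes 65 were higher and 77 lower. Against myelin-forming cells 11 newly formed genes in place of 6 and 536 of all genes were higher, and 161 and 89 genes were higher and lower between libraries. With doublets removed at the expected rate 5 genes were lower between libraries. The share of members without *Gpr17* was 9.82% and 14.4% on thinned cells, and 12.9% of 4OH-tamoxifen members had fewer than 2 *Gpr17* UMIs. Without cells under 2000 UMIs and with no thinning, members were 20.7% and 21.7% of the lineage. Thinning lowers the UMIs per cell and leaves out cells under 2000 UMIs, and the cause of these shifts was not tested further. Depth limits genes of few UMIs, such as *Tmem2* in the 25 untreated *Tmem2*/*Rras2* members.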
